A study of Mus musculus with 8 samples.

Results

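The genes described here encode the nuclear-encoded subunits of respiratory complexes II, III, IV and V and the electron carrier cytochrome c. They were found by symbol on an Illumina mouse bead array: the Sdh, Uqcr, Cyc1, Cycs, Cox4 to Cox8 and Atp5 genes, which 70 probes of 44 genes represent. A probe was kept if its intensity lay above 20, the lowest value in the deposited table, on at least 4 of 8 arrays. That left 48 probes of 36 genes, among 12259 probes of 45281 that met the same condition. Further probes of Sdhb, Sdhc, Uqcrq, Cycs, Cox5b, Atp5j, Atp5k, Atp5l, Atp5md, Atp5mpl and Atp5pb were at 20 on every array. These probes are left out of the comparisons between probes of a gene below. Complex II had 3 genes, complex III 7, cytochrome c 1, complex IV 9 and complex V 16. Complex II, succinate dehydrogenase, passes electrons from succinate to ubiquinone, complex III passes them to cytochrome c, and complex IV, cytochrome c oxidase, passes them to oxygen. Complex V, the ATP synthase, makes ATP from the proton gradient that complexes I, III and IV build. Red cell precursors hold mitochondria for haem synthesis and energy, and discard them through mitophagy as they mature into red cells.

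The cells came from bone marrow, and a flow cytometry sort selected them for CD71, the transferrin receptor, and Ter119, an erythroid surface antigen. The 4 KAP1 knockout (KO) samples are coded A4, A8, A11 and A13, and the 4 wild-type (WT) samples C4, C6, C8 and C9. Both groups are described as cells of mice that were 8 to 12 weeks old, of mixed strain and carrying Kap-flox and stopfloxYFP alleles, a conditional KAP1 allele and a recombination reporter. What drove the deletion in the KO mice is not given in the sources used here. KAP1, encoded by Trim28, is a corepressor recruited by KRAB zinc finger proteins, and the title of the series names mitophagy in red cell formation. No label says that each sample is a separate animal, so the p-values rest on a spread between samples that may be partly technical.

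Trim28 had intensities of 207, 171, 141 and 131 in KO samples, against 740, 395, 641 and 406 in WT samples. It fell 3.28-fold (log2 difference -1.71, SE 0.27, adjusted p = 0.0085, limma with Benjamini-Hochberg adjustment over all tested probes). The erythroid label was checked on 8 marker genes, none of which was at the floor of 20 on all arrays. Their mean log2 intensity was 11.58 to 11.65 in KO samples, against 11.69 to 12.25 in WT samples. Of these markers 3 had a log2 difference above 0 and 5 below, with a median of -0.08. Alas2, which starts haem synthesis, and Hbb-b2, a beta globin, fell, while Klf1, an erythroid transcription factor, had 3003 to 3381 in KO samples, against 2286 to 2841 in WT samples, and did not pass the test. A list of 10 late erythroid genes, 1 of them (Epb42) at the floor on all arrays, averaged 8.06 to 9.37 in KO samples, against 10.62 to 11.31 in WT samples. Of its 9 tested genes, 6 were called lower and 0 higher, where 3.25% and 2.4% of all tested genes were. Alas2 is in this list and in the erythroid list. The lists were chosen with earlier results of these data known, so this fall is a description and not an independent check. A list of 12 B cell genes averaged 6.29 to 7.26 in KO samples, against 7.17 to 8.25 in WT samples, and 7 megakaryocyte and platelet genes averaged 5.91 to 6.01 in KO samples, against 5.07 to 5.34 in WT samples. In the B cell list 1 gene, Pax5, was at the floor everywhere, and in the megakaryocyte list 2 were, Ppbp and Gp1bb. In the B cell list all 10 tested genes had a difference below 0 and H2-Aa alone passed the test. In the megakaryocyte list 4 of 5 tested genes were above 0. Tubb1, a platelet tubulin, entered the test through the KO samples only, with all WT samples at the floor. Its log2 difference was 3.53, against a median of 0.73 in that list, so it weighs heavily in the mean. Pf4 was also apart, at or near the floor in WT samples, while Gp9, Itga2b and Vwf overlapped between the groups. In the T and NK list 3 of 7 tested genes were above 0 and 4 below, and Cd2 alone passed, lower in KO samples. The neutrophil (9.75 to 10.86 in KO, 9.27 to 10.70 in WT), macrophage (6.45 to 7.47 in KO, 6.71 to 7.28 in WT) and T and NK cell lists (4.86 to 5.67 in KO, 4.83 to 5.83 in WT) overlapped between the groups. Of 12 tested neutrophil genes 8 were above 0 and 4 below, and none passed the test. Some were bright: S100a8 had 11224 to 20268 in KO and 20268 to 26148 in WT samples. Lcn2 had 7230 to 25407 in KO and 3424 to 8566 in WT samples. S100a9 alone in that list had every KO sample below every WT sample. The part of these shifts in the respiratory genes was not tested, and in bulk samples fewer cells of a type and less RNA per cell cannot be told apart. A8 stood apart: its mean correlation with the other KO arrays was 0.894, while the other arrays had at least 0.934 with their own groups.

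Most respiratory genes had higher mean values in KO samples, by modest amounts. With each gene read from its brightest member probe, 27 of 36 had a log2 difference (KO minus WT) above 0, where 58.3% of all 7178 tested genes did. The median difference was 0.31 over the 36 genes, with quartiles of 0.06 and 0.49, against 0.11 over all tested genes. In 14 genes every KO sample lay above every WT sample, where 11.3% of all tested genes showed that separation. In 1 gene, Sdhc, every KO sample lay below every WT sample, where 7.38% of all tested genes did. Only the ATP synthase gene Atp5e passed the test: 1 of 48 member probes was called higher and 0 lower (limma, adjusted p under 0.05), where 2.46% of all tested probes were called higher and 3.11% lower. At an unadjusted p under 0.05, 14 member probes were higher and 2 lower, where 14.6% and 10.4% of all tested probes were.

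The members include many bright probes, so bright genes were also set beside bright genes. Of 19 members with a mean log2 intensity of 10 or more, 10 had every KO sample above every WT sample and 0 had every KO sample below, where 24.3% of all 701 genes that bright were above and 14.4% were below. Of the 19, 15 had a difference above 0, where 65.3% of the bright genes did. Their median difference was 0.34, against 0.19 over those 701 genes. Of the 17 dimmer members, 4 lay wholly above and 1 wholly below, with a median of 0.25, against 0.10 over all dimmer genes, of which 9.87% lay wholly above and 6.62% wholly below. The 1 dimmer member below is thus close to the share over all dimmer genes. Of the 32 members above the floor on all 8 arrays, 13 lay wholly above and 1 wholly below, where 11.1% and 7.99% of all such genes did. Without A8, 15 members lay wholly above, where 14.5% of all tested genes did, and 1 wholly below, where 9.57% did.

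**Figure D1:**
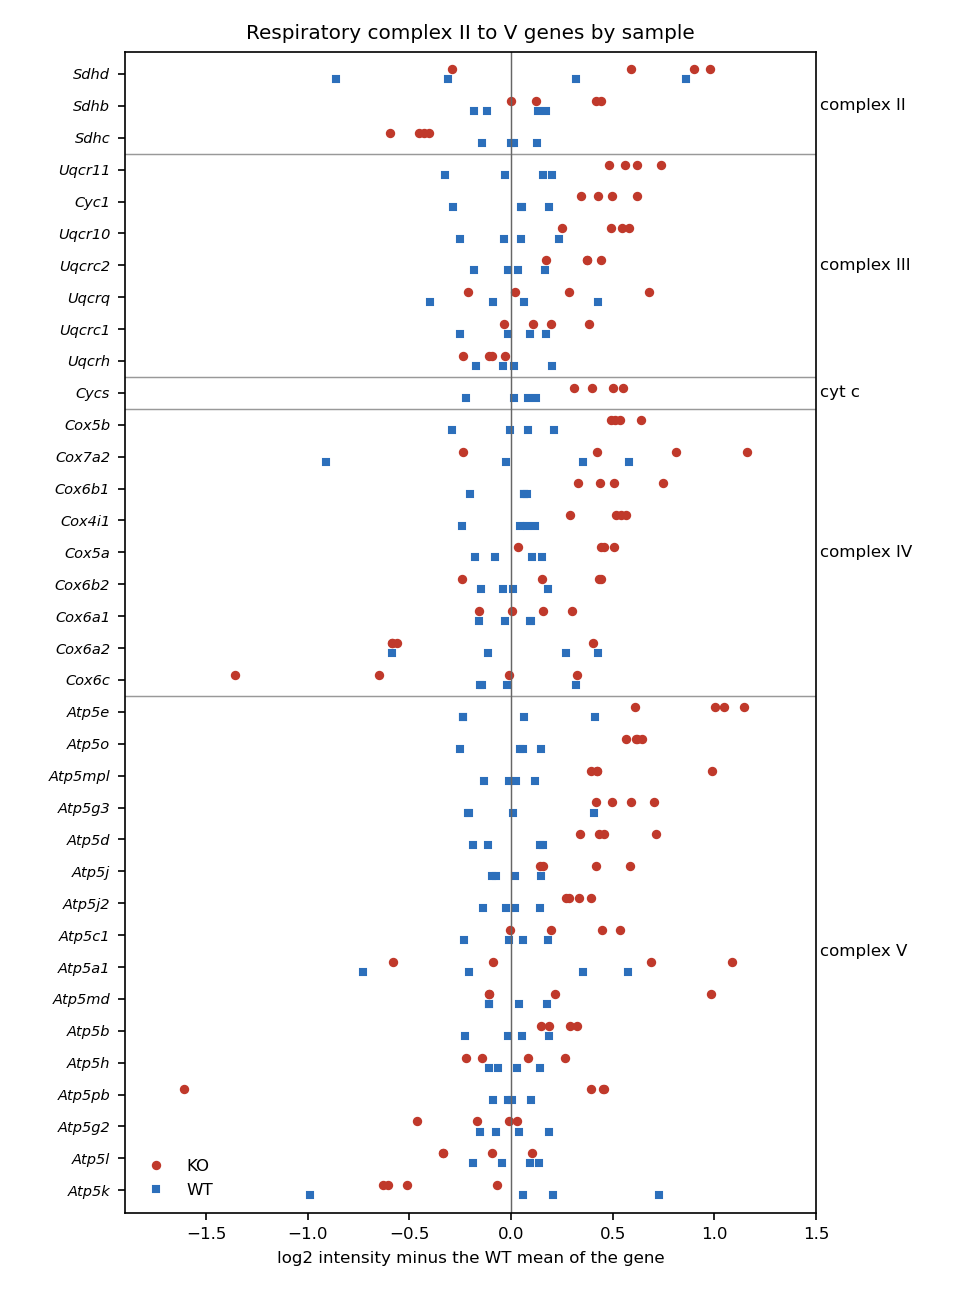
Log2 intensity of each of the 36 genes on each array, minus the mean of that gene in the WT samples, in rows grouped by complex (KO circles, WT squares, n = 4 samples each). In 14 rows all KO points lie to the right of all WT points, and in the Sdhc row they lie to the left.

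Complexes III, IV and V and cytochrome c had similar medians, and differences between complexes were not tested. The median log2 difference was 0.25 for complex II, 0.34 for complex III, 0.44 for cytochrome c, 0.36 for complex IV and 0.29 for complex V. The mean log2 intensity over the 7 complex III genes was 10.31, 10.41, 10.40 and 10.46 in KO samples, against 9.87, 10.18, 10.10 and 10.21 in WT samples. Every KO sample was above every WT sample there. Over the 9 complex IV genes the mean was 9.85, 9.78, 9.96 and 9.98 in KO samples, against 9.40, 9.76, 9.74 and 9.81 in WT samples, so that A8 lay below C9. Without C4, the lowest WT sample, the complex IV median was 0.23. Over the 16 complex V genes the mean was 9.89, 9.82, 10.09 and 9.996 in KO samples, against 9.60, 9.64, 9.74 and 9.81 in WT samples. The groups were apart there by about 0.01, between A8 and C9. The 3 complex II genes averaged 7.45 to 7.98 in KO samples, against 7.31 to 7.90 in WT samples, with wide overlap.

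**Figure D2:**
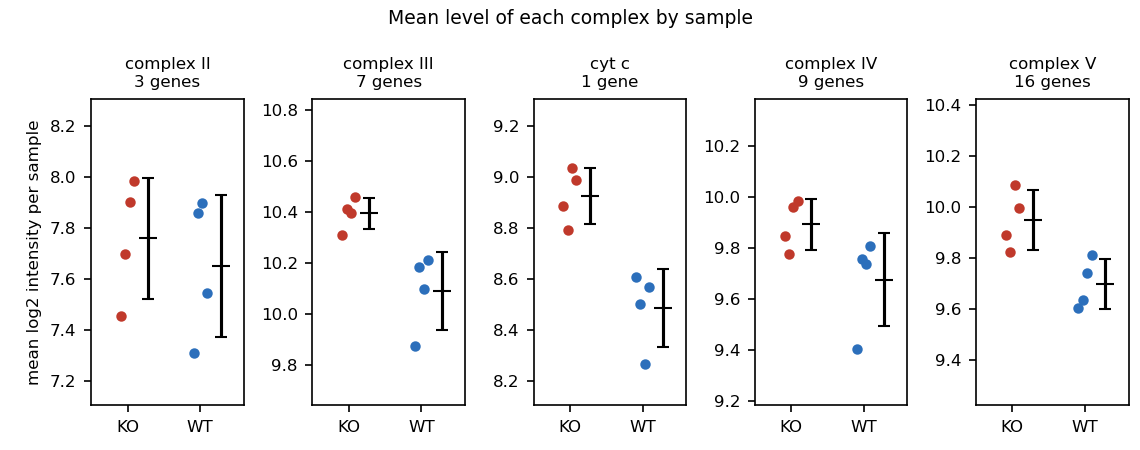
Mean log2 intensity per sample over the genes of each complex, with points for samples and bars for the mean ± SD (KO left of WT in each panel, n = 4 each; each vertical axis spans the same range but starts at a different level). Complex III averaged 10.39 ± 0.06 in KO and 10.09 ± 0.15 in WT samples, while the complex II groups overlap.

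The complex II genes pointed in different directions. Sdhc, a membrane anchor subunit, had intensities of 645, 634, 573 and 655 in KO samples, against 877, 949, 866 and 785 in WT samples. All 4 KO values lay below all 4 WT values, and the probe was 1.39-fold lower (log2 difference -0.47, SE 0.16, 95% interval -0.83 to -0.11), but it did not pass the test (adjusted p = 0.117). A further Sdhc probe was at the floor on every array. Sdhb, the iron-sulfur subunit, had 281, 258, 351 and 345 in KO samples, against 227, 290, 237 and 283 in WT samples, which overlap (log2 difference 0.25, adjusted p = 0.442). Its second probe gave a difference of 0.13. Sdhd, the other membrane anchor, was close to the floor, with 29.7, 54.8, 67.9 and 71.7 in KO samples, against 20, 45.3, 66.0 and 29.3 in WT samples (log2 difference 0.54, SE 0.41). Sdha, the subunit that oxidises succinate, was at the floor on every array and is not a member.

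In complex III, 4 of 7 genes had every KO sample above every WT sample, where 11.3% of all tested genes and 24.3% of bright genes did. Of the 7 genes, 4 were bright. Uqcr11, a small accessory subunit, had 2084, 2202, 2295 and 2487 in KO samples, against 1191, 1715, 1465 and 1663 in WT samples. This was 1.51-fold (log2 difference 0.60, SE 0.18, adjusted p = 0.0901), the largest difference in the complex. Cyc1, the cytochrome c1 haem protein, had 858, 980, 811 and 901 in KO samples, against 523, 662, 727 and 661 in WT samples (log2 difference 0.47, SE 0.18, adjusted p = 0.144). Uqcr10, another small accessory subunit, has a pair of probes. The brighter had 4907, 5105, 4160 and 5231 in KO samples, against 2934, 4112, 3415 and 3613 in WT samples (log2 difference 0.47, adjusted p = 0.152). The other gave 0.53, and on both probes every KO value was above every WT value. Uqcrc2, a core protein, was apart by less, at 1323 to 1600 in KO samples and 1037 to 1319 in WT samples (log2 difference 0.34). The other core protein Uqcrc1 (0.16), the small subunit Uqcrq (0.19) and the hinge protein Uqcrh (-0.12, 95% interval -0.49 to 0.26) overlapped. Uqcrfs1, the Rieske iron-sulfur subunit, was above the floor on at most 2 arrays and is not a member.

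Cycs, cytochrome c itself, had 473, 443, 524 and 507 in KO samples, against 390, 362, 307 and 379 in WT samples. The groups did not overlap, and the difference was 1.36-fold (log2 difference 0.44, SE 0.17, adjusted p = 0.149). The other Cycs probes were at the floor on every array.

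In complex IV, 3 of 9 genes had every KO sample above every WT sample, where 11.3% of all tested genes and 24.3% of bright genes did. These were the bright common subunits Cox4i1, Cox5b and Cox6b1. Cox4i1, the common form of the regulatory subunit 4, had 5754, 4845, 5675 and 5870 in KO samples, against 3357, 4182, 4082 and 4296 in WT samples (1.39-fold, log2 difference 0.48, adjusted p = 0.131). Cox5b had 5870, 5956, 6409 and 5790 in KO samples, against 3362, 4771, 4365 and 4094 in WT samples (1.46-fold, log2 difference 0.54, SE 0.18, adjusted p = 0.102). A dimmer Cox5b probe had overlapping groups and a difference of 0.13, so the 2 member probes disagree in size. Cox6b1, the common form of subunit 6b, had 4750, 5620, 4201 and 4525 in KO samples, against 2906, 3495, 3492 and 3530 in WT samples (1.42-fold, log2 difference 0.50, adjusted p = 0.122). Its second probe agreed, with 2516, 2607, 2628 and 2603 in KO samples, against 1666, 1874, 1934 and 1922 in WT samples (log2 difference 0.49, adjusted p = 0.1).

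The other complex IV genes overlapped between the groups. Cox6a1, the liver-type form of subunit 6a, had 6080, 4428, 4959 and 5519 in KO samples, against 4845, 4428, 5286 and 5270 in WT samples. Its log2 difference was 0.08 with a 95% interval of -0.32 to 0.47, and its second probe gave 0.03. Its muscle-type paralogue Cox6a2 was above the floor in 2 KO and 3 WT samples only. It had 39.6, 20.3, 20 and 20 in KO samples, against 20, 40.4, 36.2 and 27.7 in WT samples (log2 difference -0.33). Cox6b2, the testis form of subunit 6b, had 166, 104, 137 and 168 in KO samples, against 111, 124, 120 and 140 in WT samples (log2 difference 0.20). Another Cox6b2 probe was above the floor in C6 only, at 30.7. Cox7a2, the liver-type form of subunit 7a, had 47.5, 75.1, 125 and 98.3 in KO samples, against 29.8, 55.1, 71.7 and 83.9 in WT samples (log2 difference 0.54, SE 0.39). The dim Cox6a2 and Cox7a2 had wider errors (SE 0.31 and 0.39) than Cox6a1 (0.18) or Cox6b2 (0.21). Cox5a was bright, at 1236 to 1711 in KO samples and 1067 to 1340 in WT samples (log2 difference 0.36, adjusted p = 0.26). The lung form Cox4i2, the muscle forms Cox7a1 and Cox8b, the testis form Cox8c and Cox7b2 were at the floor on every array. Cox7b was above it on 2 arrays, at 32.0 in A11 and 31.3 in A13.

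Cox6c was uneven among KO samples. It had 955, 1560, 3063 and 2427 in KO samples, against 2215, 2410, 2202 and 3054 in WT samples, so that A4 and A8 lay below all WT samples and A11 just above them (log2 difference -0.42, SE 0.35, adjusted p = 0.473). Leaving out A4 gave -0.11 and leaving out A11 gave -0.67. The array also carries probes for 3 genes of these complexes encoded in mitochondrial DNA, which are not members and were added after the annotation was read. The complex IV gene COX2 had 890, 1588, 3159 and 2443 in KO samples, against 2400, 2300, 2634 and 3078 in WT samples (log2 difference -0.51, adjusted p = 0.409). The complex V gene ATP6 had 1178, 1257, 2781 and 2659 in KO samples, against 2130, 2026, 2358 and 3453 in WT samples (log2 difference -0.42, adjusted p = 0.469). Both were low in A4 and A8, the same KO samples in which Cox6c was low. The split was not particular to these genes. Atp5a1, on its brighter probe, had 129 and 182 in A4 and A8, against 410 and 311 in A11 and A13. The mean log2 intensity of the 17 dimmer members was 7.39 and 7.31 in A4 and A8, against 7.72 and 7.64 in A11 and A13. That of the 19 bright members was 11.82 and 11.87, against 11.86 and 11.89. The complex III gene CYTB showed no such split, at 13167, 17642, 20541 and 16625 in KO samples, against 15048, 19992, 12722 and 14248 in WT samples (log2 difference 0.14).

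Complex V held the only gene that passed the test. Atp5e, the epsilon subunit of the catalytic F1 head, had 35.9, 48.8, 52.2 and 47.2 in KO samples, against 20, 20, 31.4 and 24.6 in WT samples. It rose 1.93-fold (log2 difference 0.95, SE 0.22, 95% interval 0.46 to 1.44, adjusted p = 0.0404, limma). All 4 KO values lay above all 4 WT values, but 2 WT values were at the floor, so the fold is understated wherever their real signal was lower than 20. The probe was above the floor in 4 KO and 2 WT samples, so the KO samples alone met the filter. The call ended in 6 of 8 fits that left out 1 sample, all but those without A4 (adjusted p = 0.0487) or C8 (0.0339), and the other 6 gave 0.0555 to 0.112. The 5 genes of the F1 head all had differences above 0. Atp5d, the delta subunit, had 1148, 886, 943 and 961 in KO samples, against 615, 646, 780 and 772 in WT samples, with no overlap (1.40-fold, log2 difference 0.49, adjusted p = 0.137). The other F1 genes, Atp5a1 (0.28), Atp5b (0.24) and Atp5c1 (0.29), encode the alpha, beta and gamma subunits and overlapped between the groups. A dimmer Atp5a1 probe gave -0.53, opposite in sign to the brighter one.

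In the peripheral stalk, which holds the F1 head in place, Atp5o had the largest difference. Atp5o, the OSCP subunit, had 5003, 4934, 4750 and 4917 in KO samples, against 2698, 3337, 3548 and 3311 in WT samples. The KO values lay close together (SD 0.03 on the log2 scale) and all above the WT values, at 1.53-fold (log2 difference 0.61, SE 0.17, 95% interval 0.24 to 0.99), but it missed the threshold (adjusted p = 0.0643). The other 2 Atp5o probes each gave 0.30 with overlapping groups, and 1 of them was 86.2 in A8, against 240 to 287 in the other KO samples. Atp5pb, subunit b, rested on A8 in the same way. It had 1310, 327, 1363 and 1367 in KO samples, against 937, 986, 998 and 1068 in WT samples. The log2 difference was -0.08 with A8 and 0.43 without it (adjusted p = 0.928 and 0.152), and a second probe, at 30.9 in A8, gave -0.93 with A8 and 0.42 without it. The dimmest Atp5pb member probe lay near the floor (0.34), and a further Atp5pb probe was at the floor on every array. Atp5j, coupling factor F6, gave 0.32 and, on a probe at the floor on 4 arrays, 0.26, and Atp5h, subunit d, gave -0.0039 with a 95% interval of -0.41 to 0.40.

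**Figure D3:**
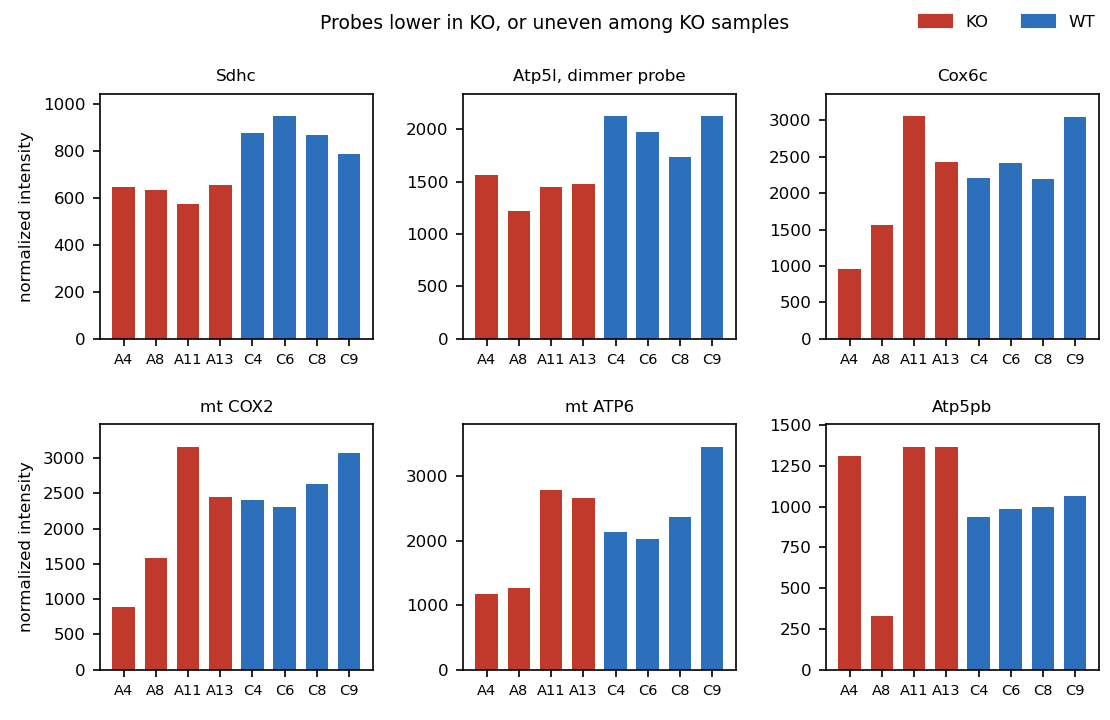
Probe intensity (linear axis from 0) on each array for Sdhc, the dimmer Atp5l probe, Cox6c, the mitochondrial genes COX2 and ATP6, and Atp5pb, with 4 KO bars left of 4 WT bars in each panel. Sdhc and the Atp5l probe are lower in every KO sample, Cox6c, COX2 and ATP6 are low in A4 and A8, and Atp5pb is low in A8, at 327.

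The membrane part of the synthase was mixed. Atp5g3, which encodes the c subunit of the proton-driven ring, had 6948, 6162, 6504 and 7506 in KO samples, against 3986, 6117, 4004 and 4653 in WT samples. Every KO value was above every WT value, though A8 and C6 were close (1.47-fold, log2 difference 0.55, SE 0.20, adjusted p = 0.130). Atp5g2, a paralogue that encodes the same mature c subunit, had 249, 277, 203 and 285 in KO samples, against 318, 251, 265 and 286 in WT samples (log2 difference -0.15, 95% interval -0.57 to 0.26). The log2 ratio of Atp5g3 to Atp5g2 was larger in KO than in WT samples by 0.70 (SD 0.22 in KO and 0.40 in WT, n = 4 each). An exact two-sided permutation test gave p = 0.0571, and 0.171 after adjustment over 3 paralogue pairs, where the smallest p possible was 0.0286. The pair Cox6b1 and Cox6b2 (0.31, exact p = 0.143) also did not pass. The ratio of Cox6a1 to Cox6a2, the other pair, is not read, since Cox6a2 was at the floor on 3 arrays.

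Among the small membrane subunits, Atp5mpl had 3357, 4959, 3348 and 3279 in KO samples, against 2715, 2283, 2480 and 2544 in WT samples (1.47-fold, log2 difference 0.56, adjusted p = 0.123). Atp5j2, subunit f, was also apart between the groups, at 5270 to 5742 in KO samples and 3972 to 4827 in WT samples (log2 difference 0.32). Atp5l, subunit g, pointed the other way. Its dimmer probe had 1562, 1220, 1447 and 1476 in KO samples, against 2127, 1970, 1731 and 2123 in WT samples, all KO values below all WT values (log2 difference -0.48, adjusted p = 0.131). The brighter Atp5l probe gave -0.16 with overlapping groups. Atp5k, subunit e, had 36.4, 33.4, 49.4 and 34.1 in KO samples, against 59.7, 26.1, 53.9 and 85.8 in WT samples (log2 difference -0.45, adjusted p = 0.436). Subunits e and g are known to sit together at the dimer interface of the synthase. Atp5md, the DAPIT subunit, was above the floor in 2 KO and 2 WT samples and gave 0.25.

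The related lists showed how far the pattern extended. For these lists the shares over all tested genes are again 58.3% with a difference above 0, 11.3% wholly above and 7.38% wholly below. Of 34 complex I genes, 29 had a difference above 0, 19 had every KO sample above every WT sample, and none had every KO sample below, with a median of 0.42. Ndufs3, a subunit of complex I, had 769, 717, 654 and 735 in KO samples, against 440, 494, 467 and 505 in WT samples (log2 difference 0.59, adjusted p = 0.0629). Ndufb6, an accessory subunit, gave 0.58 (adjusted p = 0.0671). Of 32 assembly factors of complexes II to V, 28 had a difference above 0 and 8 were wholly above, with a median of 0.33. The 8 include Tmem126b and Tmem70, which had all WT samples at the floor. These genes entered the test through the KO samples only, so the filter fixed their direction and separation. Tmem126b is known as a complex I assembly factor, though it was counted in this list. Cox19, a factor for complex IV assembly, had 209.9, 210.4, 211 and 211 in KO samples, against 144, 145, 143 and 147 in WT samples (log2 difference 0.54, adjusted p = 0.068). Uqcc2, a factor for complex III, had 880, 1134, 1100 and 1407 in KO samples, against 541, 730, 556 and 811 in WT samples (log2 difference 0.78, adjusted p = 0.073). Of 14 genes of the citrate cycle and pyruvate dehydrogenase, 11 had a difference above 0, with a median of 0.41, and 1, Idh3b, was wholly above, which is under the share over all genes. In that list Mdh2 (0.75, adjusted p = 0.1) and Idh3a (0.91, adjusted p = 0.127), both citrate cycle enzymes, had the smallest p-values. None of the genes in these 3 lists passed the test (limma, adjusted p under 0.05), where 2.4% of all tested genes were called higher and 3.25% lower. At an unadjusted p under 0.05 (limma), 17 complex I genes, 5 assembly factors and 4 citrate cycle genes were higher and 0 lower. Of all tested probes, 14.6% were higher and 10.4% lower at that p, so 5 of 32 assembly factors is near the background.

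**Figure D4:**
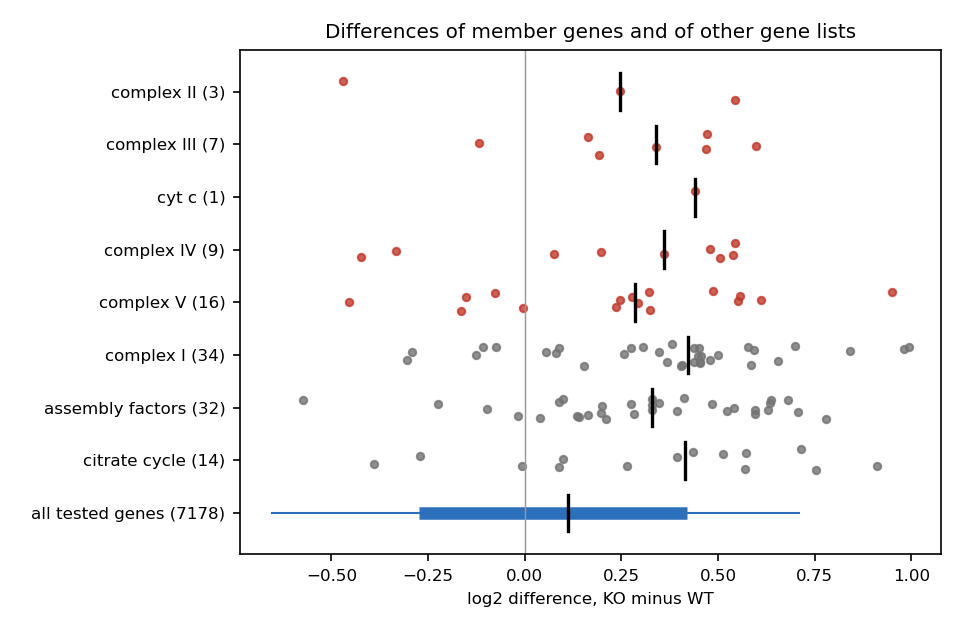
Log2 difference (KO minus WT) of each gene, 1 point a gene, for complexes II to V, cytochrome c and the related lists, with black bars at the medians; all tested genes are drawn as a line over the 10th to 90th percentile and a box over the quartiles. Medians run between 0.25 and 0.44 in the member groups and related lists, against 0.11 over all tested genes.

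Promoters of the members were read for 5 short motifs, because transcription factors such as NRF1, ETS family members and YY1 are known to act at nuclear genes of respiration and GATA factors at erythroid genes. RefSeq promoters of mouse assembly GRCm38.p6, from 250 bases before to 50 after the start, were found for 27 of the 36 genes. The NRF1 motif GCATGCGC or its other strand GCGCATGC was in 8 of 27 (29.6%), against 3.05% of 27025 genes with a promoter. The 8 were Atp5g2, Atp5k, Atp5l, Cox6a1, Cycs, Sdhb, Uqcr11 and Uqcrc1. Their median log2 difference was 0.12, against 0.36 for members with a promoter that lacks it. The ETS motif CCGGAAGT (other strand ACTTCCGG) was in 3 members (11.1%), against 4.31% of all genes, and the YY1 motif AAGATGGC (other strand GCCATCTT) in 3 (11.1%), against 3.19%. The E-box CACGTG, the same on both strands, was in 3 (11.1%), against 8.09%. The GATA motif AGATAA (other strand TTATCT) was in 1 (3.70%), against 12.7%. Members with the ETS motif had a median log2 difference of -0.0039, against 0.32 without it. The values were -0.08 and 0.32 for the E-box and 0.32 and 0.33 for YY1. The 1 GATA gene, Atp5g3, had 0.55, against 0.31 without the motif. A lower median with the motif was thus not particular to NRF1, and these gaps were not tested. A match is a description of the letters only.

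Below are 5 promoters, 5' to 3' on the strand of the gene, with motif matches in capitals: Uqcr11 and Cycs, which were apart between the groups and hold the NRF1 motif, the c-subunit paralogues Atp5g3 and Atp5g2, and Atp5e, which rose. In Uqcr11 the ETS match begins 66 and the NRF1 match 4 bases before the start, and in Cycs the NRF1 match begins 60 bases before it. Atp5g3 holds an E-box 238 bases and a GATA match on the other strand 189 bases before the start, and no NRF1 match. Atp5g2 holds overlapping NRF1 matches on both strands, which begin 42 and 40 bases before the start. Atp5e holds none of the 5 motifs.
Uqcr11, chr10:80406772-80407071, minus strand: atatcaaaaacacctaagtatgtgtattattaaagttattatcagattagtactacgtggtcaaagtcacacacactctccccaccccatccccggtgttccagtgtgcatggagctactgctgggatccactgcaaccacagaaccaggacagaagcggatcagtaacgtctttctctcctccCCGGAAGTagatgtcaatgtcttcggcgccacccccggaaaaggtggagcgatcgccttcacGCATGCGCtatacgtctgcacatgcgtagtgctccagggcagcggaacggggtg
Cycs, chr6:50566520-50566819, minus strand: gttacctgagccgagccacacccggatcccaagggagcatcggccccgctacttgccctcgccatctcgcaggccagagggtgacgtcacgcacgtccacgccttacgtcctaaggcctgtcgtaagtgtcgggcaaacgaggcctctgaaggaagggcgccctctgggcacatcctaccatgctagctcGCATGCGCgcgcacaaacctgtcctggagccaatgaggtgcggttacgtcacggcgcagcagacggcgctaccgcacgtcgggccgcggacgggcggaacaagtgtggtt
Atp5g3, chr2:73911277-73911576, minus strand: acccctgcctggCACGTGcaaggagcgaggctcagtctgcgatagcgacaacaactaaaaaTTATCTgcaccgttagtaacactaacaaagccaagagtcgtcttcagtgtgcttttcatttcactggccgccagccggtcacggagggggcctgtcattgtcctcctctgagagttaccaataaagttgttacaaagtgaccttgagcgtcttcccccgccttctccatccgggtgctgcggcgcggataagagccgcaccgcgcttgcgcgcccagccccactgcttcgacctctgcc
Atp5g2, chr15:102670998-102671297, minus strand: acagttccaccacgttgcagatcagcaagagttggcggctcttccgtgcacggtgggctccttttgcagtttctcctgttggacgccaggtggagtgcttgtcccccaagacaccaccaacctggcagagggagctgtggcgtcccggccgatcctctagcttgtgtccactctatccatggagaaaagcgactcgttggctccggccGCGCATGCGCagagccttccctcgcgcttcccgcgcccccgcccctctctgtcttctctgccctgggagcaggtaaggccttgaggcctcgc
Atp5e, chr2:174464052-174464351, minus strand: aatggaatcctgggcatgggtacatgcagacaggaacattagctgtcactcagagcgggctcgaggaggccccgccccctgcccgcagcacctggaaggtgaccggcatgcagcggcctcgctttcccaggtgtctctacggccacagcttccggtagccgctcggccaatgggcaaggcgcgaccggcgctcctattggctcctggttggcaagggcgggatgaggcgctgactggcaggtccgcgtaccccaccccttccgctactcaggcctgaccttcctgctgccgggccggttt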

How the data were processed

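RNA (100 ng per sample) was amplified, labelled with biotin and hybridised to Illumina bead arrays, per the labels' protocols. The authors deposited linear intensities. The submitters' processing notes name BeadStudio 3.1.3, and its settings are not stated there. At 4959 of the 5000 highest ranks the deposited intensity was equal across the 8 arrays (tolerance 0.1 percent), a mark of quantile normalization, and a floor of 20 held between 73.1% and 73.2% of each array's probes. Overall brightness therefore cannot differ between arrays, and signals under the floor are not seen. A deposited table of signals before normalization has 16 columns of per-sample values whose names match no sample, and these were not used.

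Intensities were turned to log2. The KO and WT groups were fitted with limma 3.58.1 (lmFit, eBayes, R 4.3.3) over the 12259 probes above the floor on at least 4 arrays, with no covariate, Benjamini-Hochberg adjustment over all of them and a threshold of 0.05. The fit was tested on simulated data. Errors are the moderated SE or the SD over 4 samples, and 4 arrays a group limit the precision. A gene is represented by its member probe of highest mean. In the annotation 34885 probes have 1 gene, 18 have several and 10378 have none, and all 36 member symbols equal a RefSeq symbol. No batch was given or tested.

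Members and lists were chosen with earlier results of these data known. Named with every array were Trim28, members past the threshold, the 3 members of smallest p in each complex, the 3 largest differences each way and tissue paralogues; in the related lists, the genes past the threshold or the 2 of smallest p. Other members are given by value or range, and the remaining member probes of a gene by their difference. The paralogue ratios and counts of separated groups were added later. Alternatives varied the filter, an added 50, centring, repeated quantile normalization, the variance model, array weights, the probe per gene and each sample left out.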

Additional observations from a re-analysis of the deposited data

Results flagged for a closer look

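Groups of 4 values were examined, the KO or WT samples of a member probe, of Trim28 or of a complex mean. Among 106 such groups, 10 held 1 sample far from the other 3. Its gap to the nearest neighbour was past Dixon's critical share of the whole range. Chance flags about 1 in 20 groups. A8 was the sample set apart in 4 of them. It was low on both bright Atp5pb probes, at 327 and 30.9, and on an Atp5o probe, at 86.2, and high on Atp5mpl, at 4959. Another 2 were KO samples: Cox5a was low in A11, at 1236, and Cox6a2 was above the other KO samples in A4, at 39.6. Among WT samples C4 stood apart 3 times, low on a Cox6b1 probe at 2906 and high on the dimmer Atp5a1 probe at 125. It was also above the floor alone among WT samples on the dimmest Atp5pb member probe, at 26.6. C6 was high on the second Uqcr10 probe, at 3504. Without A8, 15 member genes had every KO sample above every WT sample, and Atp5pb was among them.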

How the results depend on the processing

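The medians of all members and of complexes III, IV and V and cytochrome c stayed above 0 under every alternative run. The complex II median reversed to -0.11 when probes had to be above the floor on all 8 arrays, which leaves Sdhb and Sdhc. The count of member probes called higher, 1 in the reported fit, was 7 with 50 added to the intensities, 0 with quantile normalization repeated, 8 with a trended and robust variance and 3 with array weights; leaving out 1 sample gave 0 to 1. With 50 added, 1 member probe, of Sdhc, was called lower. Over all tested probes, 301 called higher became 171 with the stricter filter, 74 with no filter and 836 with array weights, and 91 to 557 without 1 sample (289 without A8). The 381 called lower became 78 with no filter, 702 with array weights and 162 to 586 without 1 sample. Among the fits without 1 sample, both highest counts came without C6. The stricter filter leaves out Atp5e, and the 1 member called there is Atp5o instead. Atp5e lost its call with no filter (adjusted p = 0.182), 50 added (0.0646), repeated quantile normalization (0.0686) and a trended variance (0.0614). With no filter 1 member probe was still called higher, so it was not that of Atp5e. Atp5o gained one with the stricter filter (0.049), 50 added (0.0159), a trended variance (0.0133) and array weights (0.0295). Members wholly below WT numbered 2 with the mean of all probes of a gene and 1 to 2 without 1 sample (2 without C6). Trim28 lost its call with no filter only (0.0925). Of 349 values of 22 named probes under alternatives, 323 kept direction and call, 11 lost a call, 15 gained one and 0 reversed. Beyond the stated construction of each alternative, causes were not tested. The floor limits what dim members can show. The numbers 4 and 8 occur in the sample codes of both groups, and no label says that they tie samples. The deviations of same-numbered samples correlated at 0.26 and 0.22 over tested probes. A replicate block by these numbers, added after seeing the data, rests on those 2 pairs with 1 residual degree of freedom. It called 0 member probes and 0 of all tested probes in either direction (limma; 945 higher and 991 lower at an unadjusted p under 0.05), with a member median of 0.31.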

Other observations

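Regulators of mitochondrial biogenesis and expression gave mixed values. Of 18 tested genes, 13 had a difference above 0, where 58.3% of all tested genes did, with a median of 0.23. None passed the test (limma, adjusted p under 0.05), where 2.4% of all tested genes were called higher and 3.25% lower, so a count of 0 among 18 is near the background. At an unadjusted p under 0.05 (limma), 5 were higher and 0 lower, where 14.6% and 10.4% of all tested probes were. Tfb1m, which encodes a mitochondrial ribosomal RNA methyltransferase, had 70.4, 80.2, 106 and 119 in KO samples, against 28.6, 60.5, 22.4 and 51.5 in WT samples (log2 difference 1.29, adjusted p = 0.062). Tsfm, a mitochondrial translation elongation factor, had 40.4, 59.1, 30.9 and 40.3 in KO samples, against 20, 28.7, 20 and 20 in WT samples, where 3 were at the floor (log2 difference 0.92, adjusted p = 0.0583). In both genes every KO value was above every WT value. Of all tested genes 11.3% showed that separation, so 2 of 18 is near the background. Tsfm met the filter with 4 KO samples and 1 WT sample above the floor. Nrf1, the transcription factor, was the 1 gene with every KO value below every WT value, at 844, 636, 787 and 804 in KO samples, against 876, 915, 1094 and 1009 in WT samples (log2 difference -0.35, adjusted p = 0.258). Of all tested genes 7.38% lay wholly below, so 1 of 18 is near the background, and Nrf1 was singled out after its values were seen.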
